A study of Mus musculus with 4 samples.

Results

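The filaggrin family and the proteases that process filaggrin were followed in dorsal skin of mice at postnatal day 16. The group comprised 6 listed genes, namely the S100 fused-type genes Flg, Flg2, Hrnr and Rptn and the protease genes Casp14 and Asprv1. Members were the probe sets that the annotation of the array, an Affymetrix mouse whole-genome expression array, gives one of these symbols. There were 8 such probe sets for 5 of the 6 genes, among 18193 genes with a probe set on the array, and Flg2 had none and is not analysed here. The bitransgenic group held 2 animals that overexpressed deltaNp63alpha, the p63 isoform without the amino-terminal transactivation domain, and the wild type group held 2 animals. With 1 array per animal, n was 2 in each group, and this small number sets how precise any value can be. The promoter that drives the transgene, any inducing treatment, the strain and the sex are not given in the labels.

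Filaggrin is made in the granular layer of the epidermis as profilaggrin, a large precursor of tandem filaggrin repeats that is stored in keratohyalin granules. When a keratinocyte cornifies, profilaggrin is dephosphorylated and cut into filaggrin monomers that bundle keratin filaments. The monomers are then deiminated by peptidylarginine deiminases and broken down to free amino acids that hold water in the stratum corneum. In humans, loss-of-function alleles of FLG cause ichthyosis vulgaris and predispose to atopic dermatitis.

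The 4 structural genes lie next to each other on chromosome 3, in the order Flg2, Flg, Hrnr and Rptn, inside the epidermal differentiation complex, whereas Asprv1 lies on chromosome 6 and Casp14 on chromosome 10. All 6 genes had a promoter sequence from RefSeq (GRCm38.p6), of which the 250 bases before the start were searched. The windows of 30 bases below are shown because the promoters of Flg and some of its relatives resemble each other around one short element. That element is TGANTCA (searched on both strands, which read alike), a loosened form of the binding sequence of AP-1 factors with any base at its centre. The matches shown hold A or T there, where the strict sequence has C or G. An AP-1 site drives the human FLG promoter in keratinocytes. The window of Flg starts 111 bases before the start, and each other window is the ungapped stretch that shares the most bases with it. Capitals mark the element.
Flg (chr3:93273435-93273464, + strand): gttaagaaTGAATCAgaccatcccacagag
Flg2 (chr3:93197196-93197225, + strand): attagaaaTGAATCAgcccatcccacagaa
Hrnr (chr3:93319663-93319692, + strand): tttaggagtgaactaggacatctcaaagaa
Rptn (chr3:93393595-93393624, + strand): gcccagaaTGATTCAggccctaccaacaga
Crnn (chr3:93144685-93144714, + strand): gccttggaTGAATCAagcctgcttgtaggg
Tchhl1 (chr3:93468659-93468688, + strand): ggtggtgaTGAATCAggtcattacacccag
Tchh (chr3:93442236-93442265, + strand): aatcagtgtgaatgaagttttcccaaagtc
The window of Flg2 shared 25 of 30 bases with that of Flg, that of Hrnr 20, that of Rptn 18, that of Tchhl1, the gene of a trichohyalin-like protein, 19 and those of Crnn, the cornulin gene, and Tchh, the trichohyalin gene, 16 each. A stretch with 20 or more shared bases occurred in 0.0517% of 32851 promoters, one with 18 or more in 1.49%, and one with 16 or more in 18.7%. The element began 103 bases before the start in Flg, 69 in Flg2 and 96 in Rptn. Hrnr, Tchh, Casp14 and Asprv1 held no such letters in the 250 bases, and 6.75% of all promoters held them. These matches describe letters and are not evidence of a bound site.

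The 250 bases before the start are shown for Flg and Casp14, whose signals moved together, and for Rptn, whose signal lay on the other side of wild type. Capitals mark TGANTCA and TATAAA, the letters of a TATA box. The 2 motifs did not overlap.
Flg (chr3:93273296-93273545, + strand): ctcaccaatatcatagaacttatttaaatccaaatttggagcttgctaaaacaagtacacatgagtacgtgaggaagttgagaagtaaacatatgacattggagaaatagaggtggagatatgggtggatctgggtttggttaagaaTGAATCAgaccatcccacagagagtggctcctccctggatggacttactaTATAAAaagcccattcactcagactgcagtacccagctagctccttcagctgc
Rptn (chr3:93393449-93393698, + strand): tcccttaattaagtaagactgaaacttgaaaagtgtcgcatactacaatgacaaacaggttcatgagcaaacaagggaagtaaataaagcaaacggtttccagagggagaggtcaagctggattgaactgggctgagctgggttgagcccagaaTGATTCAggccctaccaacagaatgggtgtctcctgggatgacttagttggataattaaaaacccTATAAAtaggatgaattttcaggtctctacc
Casp14 (chr10:78718294-78718543, - strand): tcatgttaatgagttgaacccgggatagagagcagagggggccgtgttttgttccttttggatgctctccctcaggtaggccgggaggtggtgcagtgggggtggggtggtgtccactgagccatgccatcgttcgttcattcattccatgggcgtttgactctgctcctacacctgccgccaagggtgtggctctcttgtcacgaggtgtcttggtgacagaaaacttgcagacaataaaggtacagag
TATAAA (searched on both strands) began 53 bases before the start in Flg and 31 bases before it in both Hrnr and Rptn, and 12.4% of all promoters held it. Casp14 held neither motif. The p53 family decamer is a single unit of the longer element that p63 also binds. Searched on both strands, the decamer was found in Flg2 and Hrnr and not in Flg, Rptn, Casp14 or Asprv1, against 7.13% of all promoters.

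Signals are probe set intensities on a linear scale, summarised and scaled by the authors so that each array had the same trimmed mean. Differences are of log2(signal + 16), bitransgenic minus wild type, with standard errors (SE) and adjusted p from limma, in which the threshold was 0.05 after Benjamini-Hochberg adjustment over 13070 genes. The transgene's gene, Trp63, was 28.9-fold and 23.1-fold higher in bitransgenic skin by 2 of its 4 probe sets, with adjusted p of 0.0613 and 0.0591 in limma's fit of all 45037 probe sets. Its other probe sets had log2 differences of -0.037 and -0.33. Arrays of the same group correlated at 0.949 for bitransgenic and 0.918 for wild type skin, and across groups at 0.869 to 0.920. The 3' to 5' signal ratio of Gapdh, which reads RNA integrity, was 0.944 and 0.931 in bitransgenic and 1.55 and 1.02 in wild type skin, and that of beta-actin 1.70 and 1.54 in bitransgenic and 1.66 and 1.53 in wild type skin. The Y-linked gene Eif2s3y read 16 and 1212 in bitransgenic and 1922 and 22.5 in wild type skin. Each group thus held 1 array with and 1 without it, at opposite replicate numbers. Sex is therefore mixed into every fit that leaves out an array and into every difference within a replicate number. Keratinocyte markers were bright on every array, as Krt14 read 25491 and 36168 in bitransgenic and 22719 and 29412 in wild type skin.

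Flg and Casp14 rose in bitransgenic skin, by 4.38-fold and 4.95-fold. Rptn and Asprv1 had lower signals in both bitransgenic animals than in either wild type animal, but neither passed the threshold. The signals of Hrnr overlapped between the groups. Of the 5 genes tested, 2 rose and 0 fell, where 0.75% of all genes tested rose and 1.58% fell. In 4 of the 5 the groups did not overlap, as in 48.8% of all genes tested. The median log2 difference of the 5 was -0.16, against 0.0053 for all genes tested. Skin was measured whole, so a change in the number of granular cells and a change in RNA per cell cannot be told apart.

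**Figure D1:**
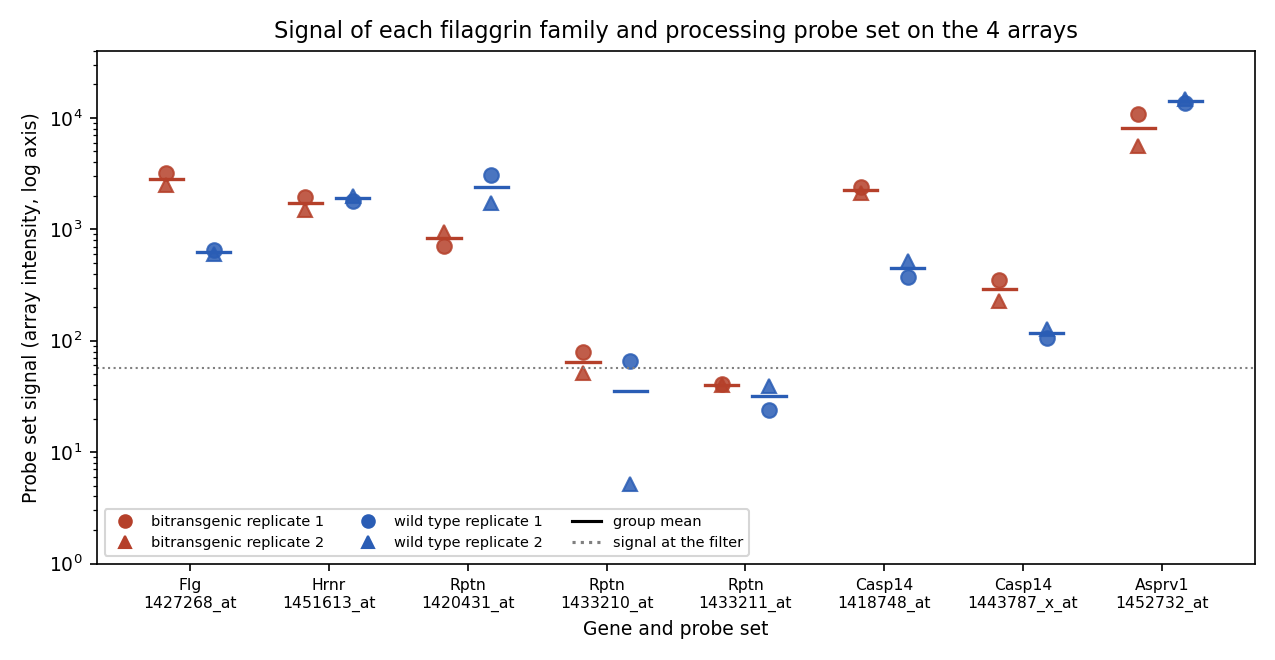
Signal of each of the 8 probe sets (array intensity, log axis) on the 2 bitransgenic and 2 wild type arrays, with bars for group means and a dotted line at the signal of 57.0 that corresponds to the filter on dim probe sets. The bitransgenic signals of Flg and of both Casp14 probe sets lie above the wild type signals, those of Asprv1 and of the bright Rptn probe set lie below them, and the other 2 Rptn probe sets are near or under the filter.

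Flg, the gene of profilaggrin, was read by 1 probe set (1427268_at), with signals of 3178 and 2489 in bitransgenic replicates 1 and 2 and of 655 and 606 in wild type replicates 1 and 2. The lower of the bitransgenic signals was thus well above the higher of the wild type signals, and the spread within each group was small beside the gap. Means were 2834 ± 488 (SD) in bitransgenic and 631 ± 35.0 in wild type skin. The log2 difference was 2.13 ± 0.25 (SE), with a 95% interval of 1.52 to 2.74 and an adjusted p of 0.0156. It was 2.25 within replicate 1 and 2.01 within replicate 2. In the fit of all 45037 probe sets, where 0.0444% were called higher, the adjusted p was 0.0591, and with dim probe sets filtered out it was 0.0345. Without bitransgenic replicate 1 the difference was 1.95 (adjusted p = 0.102) and without bitransgenic replicate 2 it was 2.31 (adjusted p = 0.0529), so the call needed both bitransgenic arrays. In a fit that leaves out 1 array, the remaining array of that group is assumed to vary like the other group and the prior, here and below.

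Hrnr codes for hornerin, a repeat-bearing relative of filaggrin found in the cornified envelope. Its probe set (1451613_at) read 1931 and 1495 in bitransgenic skin and 1809 and 1986 in wild type skin. One bitransgenic signal lay between the wild type signals and the other below them. Means were 1713 ± 309 (SD) and 1898 ± 125. The log2 difference was -0.16, with a 95% interval of -0.76 to 0.45 (adjusted p = 0.820), and it turned to 0.026 without bitransgenic replicate 2. The interval of Hrnr thus ended below where that of Flg began, although the difference between the genes was not itself tested.

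Rptn codes for repetin, an S100 fused-type protein that in mice is found in the granular layer and in the inner root sheath of the hair follicle. Its bright probe set (1420431_at) read 711 and 947 in bitransgenic skin, against 3076 and 1709 in wild type skin. Both bitransgenic signals were lower than either wild type signal, and the wild type animals differed more from each other than the bitransgenic animals did. Means were 829 ± 167 (SD) and 2392 ± 967. The log2 difference was -1.46 ± 0.35 (SE), with a 95% interval of -2.30 to -0.62 and an adjusted p of 0.0989. Without wild type replicate 2 the difference was -1.89 (adjusted p = 0.0165), and without wild type replicate 1 it was -1.04 (adjusted p = 0.148).

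The other 2 Rptn probe sets, which are annotated to the same source sequence, were dim. Probe set 1433210_at read 78.5 and 51.3 in bitransgenic and 65.5 and 5.2 in wild type skin, and probe set 1433211_at read 40.8 and 40.1 in bitransgenic and 23.8 and 39.5 in wild type skin. Neither passed the filter, and their log2 differences of 0.94 and 0.26, with 95% intervals of -0.77 to 2.65 and -0.79 to 1.32, did not share the sign of the bright probe set. In all, 6 of the 8 probe sets passed the filter, and each gene is represented by its brightest one.

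Casp14 codes for a caspase of cornifying keratinocytes that in mice is needed for the full breakdown of filaggrin. Its brighter probe set (1418748_at) read 2411 and 2094 in bitransgenic skin and 370 and 524 in wild type skin. As with Flg, the groups were far apart and the animals of each group were close. Means were 2252 ± 224 (SD) and 447 ± 109. The log2 difference was 2.31 ± 0.28 (SE), with a 95% interval of 1.63 to 2.99 and an adjusted p of 0.0166. Without bitransgenic replicate 1 it was 2.21 (adjusted p = 0.0986) and without bitransgenic replicate 2 it was 2.41 (adjusted p = 0.0662), so here too the call needed both bitransgenic arrays. In the fit of all 45037 probe sets the adjusted p was 0.0591, which misses the threshold.

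The second Casp14 probe set (1443787_x_at), whose suffix marks probes that can also read other transcripts, read 349 and 230 in bitransgenic and 106 and 128 in wild type skin. It had the same direction as the first and a smaller log2 difference, 1.18 with a 95% interval of 0.21 to 2.15 (adjusted p = 0.394 in limma's fit of all probe sets). The mean of both probe sets gave 1.74 for the gene (adjusted p = 0.0476).

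Asprv1 codes for a retroviral-like aspartic protease of the granular layer that in mice cuts the linkers between filaggrin repeats. Its probe set (1452732_at) read 10747 and 5604 in bitransgenic skin, against 13685 and 14713 in wild type skin. Both bitransgenic signals were lower than the wild type signals, and they differed from each other by more than the brighter one differed from wild type. Means were 8176 ± 3637 (SD) and 14199 ± 727. The log2 difference was -0.87 ± 0.34 (SE), with a 95% interval of -1.69 to -0.046 and an adjusted p of 0.276. It was -1.34 without bitransgenic replicate 1 and -0.40 without bitransgenic replicate 2 (adjusted p = 0.190 and 0.810), so 1 array set much of its size.

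**Figure D2:**
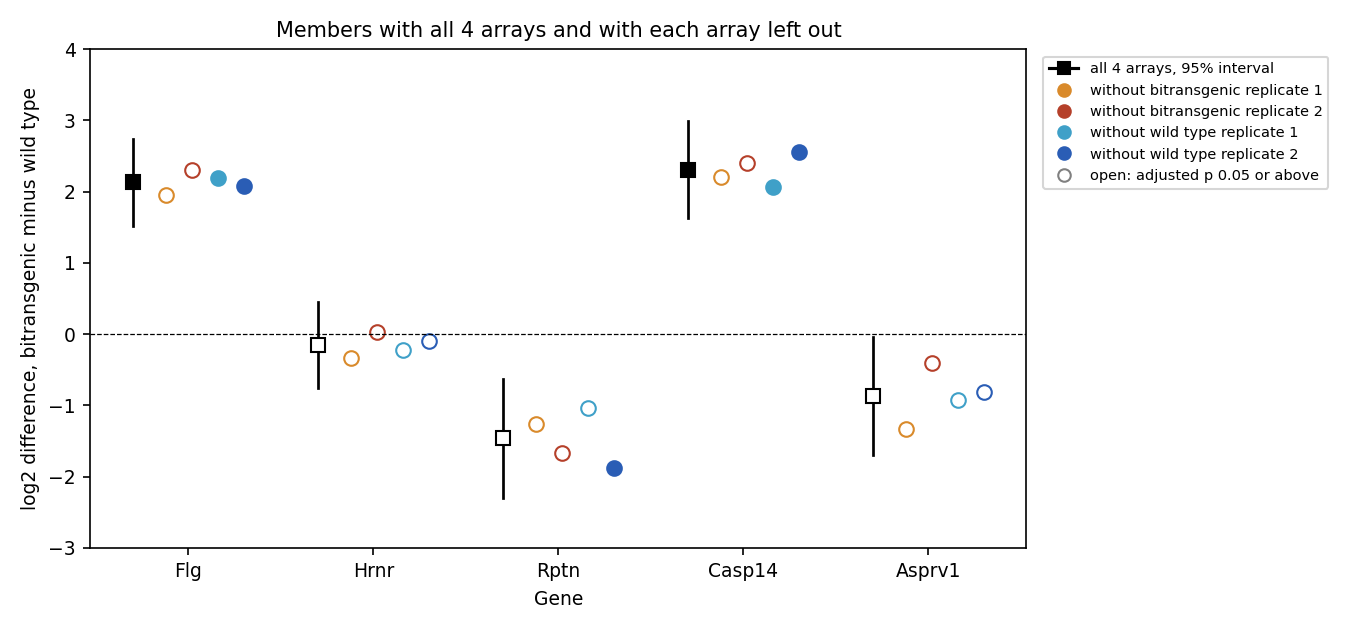
The log2 difference (bitransgenic minus wild type) of each of the 5 genes with all 4 arrays (square, with its 95% interval) and with each array left out in turn (circles), filled where the adjusted p was under 0.05. Flg and Casp14 stay between 1.95 and 2.55 and lose the threshold without either bitransgenic array, Rptn stays between -1.89 and -1.04, and Hrnr lies near 0.

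The profiles over the 4 arrays fell apart by these directions. Centred on its own mean, the log2 profile of Casp14 differed from that of Flg by 0.23 (root mean square over 4 arrays), whereas Hrnr differed from Flg by 1.15, Asprv1 by 1.52 and Rptn by 1.84. Among the other genes tested, the 5 profiles closest to Flg were those of Oas1a, Reg1, Pla2g4e, Lce1i and Cbr3, at 0.035 to 0.10. Oas1a, an interferon-induced synthetase of oligoadenylates, read 1229 and 933 in bitransgenic and 233 and 211 in wild type skin. Reg1 read 203 and 136 in bitransgenic and 31.3 and 26.3 in wild type skin, and it missed the threshold (2.03, adjusted p = 0.0595). Its wild type signals lay under the filter's 57.0, so it was kept through its bitransgenic signals. Lce1i, a late cornified envelope gene of the same chromosome region, read 6874 and 6320 in bitransgenic and 1668 and 1568 in wild type skin. Pla2g4e is a phospholipase gene and Cbr3 a carbonyl reductase gene, with log2 differences of 2.10 and 1.96. With 4 arrays in 2 groups, a likeness of this kind largely restates the size of the genotype difference.

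Genes beside the family on chromosome 3 differed in both directions. Over the stretch from Flg2 to Rptn and 12 protein-coding genes on either side, which was chosen after values were seen, 10 genes outside the family were tested, and 3 rose and 2 fell, where 0.75% and 1.58% of all genes tested did. The risers Lce3f, Lce3c and Lce3a, late cornified envelope genes, had log2 differences of 6.92, 4.87 and 2.98. Their wild type signals were, in that order, 7.6 and 23.9, 51.7 and 15.6, and 7.2 and 26.7, all under the filter's 57.0. These genes were thus kept through their bitransgenic signals. Lce3a was tested in 11 of 14 alternatives and missed the threshold with dim probe sets included (adjusted p = 0.0525). The genes that fell were Lce1m, of the same kind, at -3.89, and Tchhl1 at -7.19. Tchh, the gene of trichohyalin, which hardens the inner root sheath, sits directly after Rptn. It read 276 and 2239 in bitransgenic and 11068 and 14710 in wild type skin, a log2 difference of -3.98 (adjusted p = 0.0793). Its bitransgenic arrays differed widely, and with either of them left out, so that the spread came from the wild type arrays, the value was -2.50 (adjusted p = 0.0307) without the first and -5.45 (adjusted p = 4.91e-04) without the second. Some of these signals lay below or near the filter's 57.0 in one group, so the size of such differences depends on the pseudocount. Tchhl1 read 26.0 and 62.9 in bitransgenic against 8074 and 8689 in wild type skin.

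**Figure D3:**
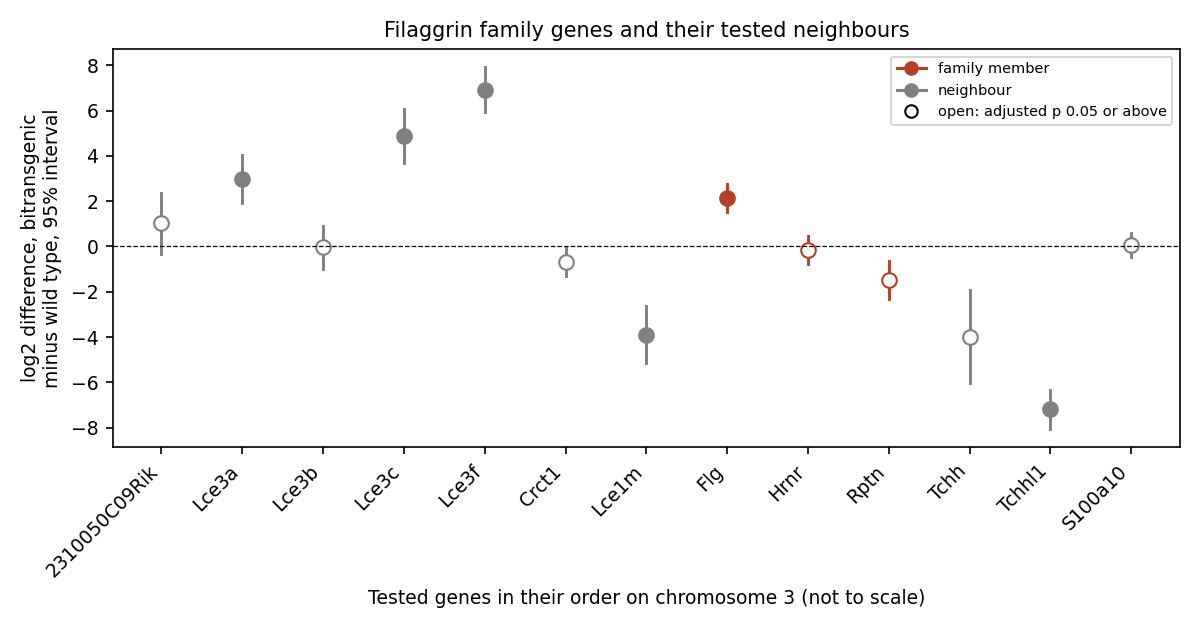
The log2 difference (bitransgenic minus wild type, with 95% interval) of the 13 genes tested from the stretch around the family, in their order on chromosome 3 and not to scale, filled where the adjusted p was under 0.05. From Flg through Hrnr and Rptn to Tchh and Tchhl1 the values run from 2.13 to -7.19, and the next tested gene, S100a10, lies at 0.068. The genes on the other side lie in both directions, between 6.92 and -3.89.

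Of 20 other genes listed for the processing and breakdown of filaggrin, 18 were tested. None rose and 3 fell, against 0.75% and 1.58% of all genes tested, and the list's median log2 difference was -0.38, against 0.0053 for all genes. The 3 that fell were all peptidylarginine deiminases, which turn arginine into citrulline. Padi1 read 68.9 and 119.5 in bitransgenic and 1667 and 3091 in wild type skin, a log2 difference of -4.41 ± 0.41 (SE, adjusted p = 0.00781). Padi3 read 223 and 575 in bitransgenic and 5422 and 15278 in wild type skin (-4.60 ± 0.60, adjusted p = 0.0193). Both enzymes act in the granular layer, and PADI3 also acts on trichohyalin in the hair follicle. Padi4 read 185 and 99.3 in bitransgenic and 691 and 977 in wild type skin, with a log2 difference of -2.46 (adjusted p = 0.0347). Its adjusted p was 0.0528 when bitransgenic replicate 1 was left out, 0.132 when replicate 2 was, and 0.0535 with dim probe sets included, so the call was lost in each of these fits. For Padi2 the signals overlapped, with a log2 difference of -0.42.

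The following genes of the list were chosen for their roles after their values were seen. Among the proteases of profilaggrin, Prss8, the membrane-anchored protease prostasin, read 839 and 546 in bitransgenic and 1740 and 2511 in wild type skin. Both bitransgenic signals were lower, with a log2 difference of -1.60 (adjusted p = 0.0672) that passed without wild type replicate 1 (-1.87, adjusted p = 0.0309). St14, the gene of matriptase, which acts with prostasin, had overlapping signals and a log2 difference of -0.57 (adjusted p = 0.569). Pcsk6, a proprotein convertase, read 448 and 433 in bitransgenic and 989 and 741 in wild type skin, lower without overlap (-0.93, adjusted p = 0.167). Furin, another convertase, and the kallikrein genes Klk5 and Klk7 had log2 differences of 0.49, 0.15 and 0.46, with adjusted p between 0.414 and 0.811. Ctsh, the gene of cathepsin H, read 8251 and 7486 in bitransgenic and 5732 and 3268 in wild type skin. Its log2 difference of 0.86 was the highest of the list, without overlap (adjusted p = 0.242). Blmh, the bleomycin hydrolase that acts after the caspase to release amino acids, read 11473 and 9032 in bitransgenic and 7322 and 6630 in wild type skin (0.55, adjusted p = 0.332). Hal, the histidase that turns filaggrin-derived histidine into urocanic acid, had a log2 difference of -0.48 (adjusted p = 0.515).

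**Figure D4:**
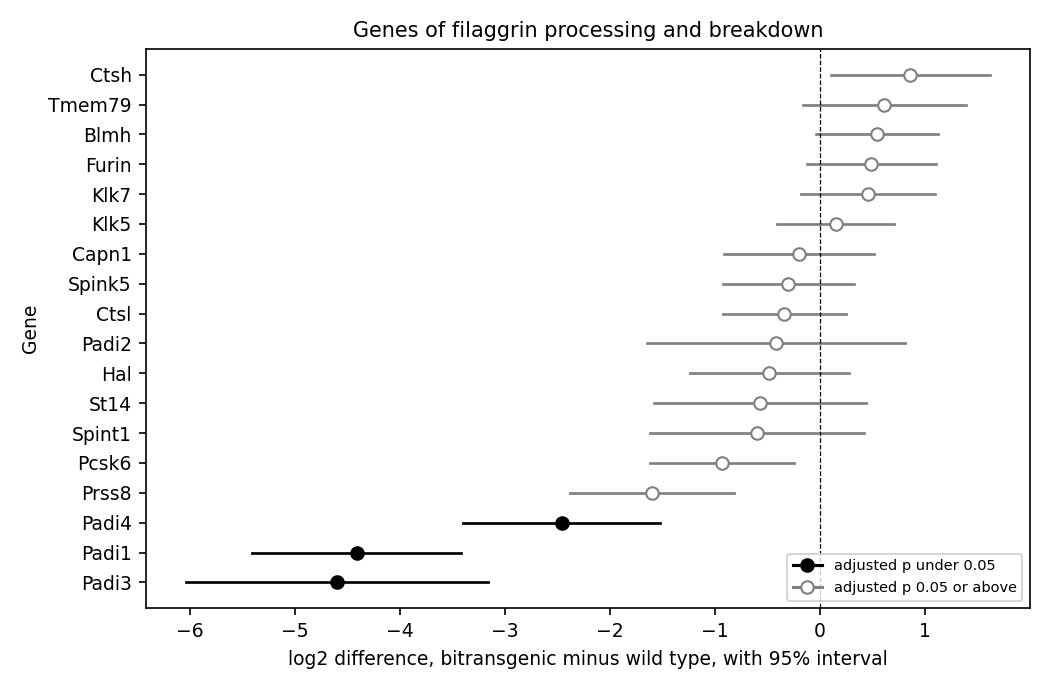
The log2 difference (bitransgenic minus wild type, with 95% interval) of the 18 tested genes of filaggrin processing and breakdown, filled where limma's adjusted p was under 0.05. Padi3, Padi1 and Padi4 lie lowest, at -4.60, -4.41 and -2.46, and the other 15 genes have open circles between -1.60 and 0.86.

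Other genes of the granular and cornified layers were measured beside Flg and Casp14. Of 14 tested, none rose and none fell in limma's fit at an adjusted p of 0.05, where 4 had an unadjusted p under 0.05, as did 16.7% of all genes tested. The median log2 difference of the 14 was 0.11. Without overlap, 4 of the 14 lay lower in bitransgenic skin and 3 lay higher (Ivl, Dmkn and Krtdap). Over all genes tested, 48.8% did not overlap in either direction. Lor, the gene of loricrin, the main protein of the cornified envelope, read 7171 and 3779 in bitransgenic and 16101 and 8350 in wild type skin (-1.15, adjusted p = 0.247). Cnfn, the cornifelin gene, read 2738 and 2223 in bitransgenic and 4891 and 7821 in wild type skin (-1.32, adjusted p = 0.0883). Both lay lower in bitransgenic skin without overlap. Cdsn, the corneodesmosin gene, had a log2 difference of -0.61 (adjusted p = 0.246), and Tgm3, the gene of a transglutaminase of epidermis and hair, one of -2.35 (adjusted p = 0.253). Cnfn and Tgm3 had adjusted p of 0.0239 and 0.00353 without wild type replicate 1, a fit that drops the difference between the wild type signals, which for Tgm3 were 378 and 2987. Ivl, the gene of involucrin, an early envelope protein, was chosen after its values were seen and passed without wild type replicate 2 (2.24, adjusted p = 0.0136), against 1.35 (adjusted p = 0.306) with all arrays.

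None of 23 transcription factor genes tied to filaggrin or late differentiation passed the threshold. In limma's fit 7 of them had an unadjusted p under 0.05, where 16.7% of all genes tested did. The median log2 difference of the 23 was 0.16. Trp63 is among the 23 through its brightest probe set (-0.037), and the mean of its kept probe sets passed (2.25, adjusted p = 0.0177). The values with the smallest p were those of Maf, a factor of epidermal differentiation (-1.25, adjusted p = 0.0602), Fosl1, an AP-1 subunit (1.82, adjusted p = 0.0873), Cebpa (1.18, adjusted p = 0.0942) and Ppard (1.28, adjusted p = 0.104). Fosl1 read 228 and 384 in bitransgenic and 58.0 and 89.6 in wild type skin, with no overlap. The AP-1 subunit genes Jun, Junb and Fos, chosen after their values were seen, overlapped between groups, and Fosl2 read 3470 and 3085 in bitransgenic and 4082 and 4066 in wild type skin (-0.31, adjusted p = 0.554). Dlx3, a homeobox gene that like Fosl2 was chosen after its values were seen, read 177 and 561 in bitransgenic and 1315 and 5048 in wild type skin. Its log2 difference was -2.96, without overlap (adjusted p = 0.110). Fosl1, Cebpa and Ppard passed without wild type replicate 2, and Maf, Fos and Dlx3 without wild type replicate 1, fits that leave 1 wild type array. Without wild type replicate 1 the log2 differences of Maf and Dlx3 were -1.43 and -3.92, and that of Fos was 1.45.

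Of 10 cytokine genes known to lower filaggrin in keratinocytes, 3 were tested and 1 rose, where 0.75% of all genes tested rose. Tslp, the gene of thymic stromal lymphopoietin, read 314 and 511 in bitransgenic and 52.4 and 53.3 in wild type skin, a log2 difference of 2.60 (adjusted p = 0.0274). Both wild type signals lay under the filter's 57.0, so it was kept through the bitransgenic signals, and the size depends on the pseudocount, with 2.90 at 1 and 2.0 at 64. With the filter at the 60th percentile it was not tested. Leaving out bitransgenic replicate 1 gave 2.94 (adjusted p = 0.0600) and leaving out replicate 2 gave 2.26 (adjusted p = 0.122), and with dim probe sets included the adjusted p was 0.0510, so the call was lost in each of these fits. Il33 and Osm overlapped between groups, with log2 differences of 0.76 and 0.53.

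Markers of other parts of the skin moved with genotype in the same arrays. All 7 hair shaft markers tested fell, where 1.58% of all genes tested fell. Their summed signal was 612 to 2944 in bitransgenic and 56476 to 91554 in wild type skin. The hair shaft count was 6 with a pseudocount of 1, without the intensity trend or without the filter on dim probe sets. Of 9 inner root sheath markers, 2 fell and 8 lay lower without overlap, with sums of 3330 to 19854 in bitransgenic and 118734 to 206717 in wild type skin. Of 6 skeletal muscle markers, 5 fell, with sums of 15488 to 20057 in bitransgenic and 68079 to 160164 in wild type skin. The inner root sheath counts were 6 without bitransgenic replicate 1 and 7 without bitransgenic replicate 2, fits that drop the wide spread between the bitransgenic arrays, whereas of the muscle markers 1 and 2 fell in these fits and none without the intensity trend or the filter on dim probe sets. All 6 dermal fibroblast markers and all 4 adipocyte markers lay lower without overlap, where 48.8% of all genes tested did not overlap in either direction, and none passed, although 1 and 2 of them fell without wild type replicate 2. Markers of sebaceous gland, melanocytes, T cells, macrophages and mast cells, and endothelium held no called gene with all arrays, while all 5 melanocyte markers passed as lower without wild type replicate 1, where the wild type group is replicate 2 alone, the array with sums of 15526 against 1923 in wild type replicate 1. Likewise 1 sebaceous marker rose without bitransgenic replicate 2. The summed signals of basal keratinocyte markers were 53748 to 80774 in bitransgenic and 57174 to 66870 in wild type skin, and those of spinous markers 50155 to 64878 and 44151 to 58996, so both overlapped. Among the spinous markers, Krt1 read 11382 and 18291 in bitransgenic and 6727 and 3428 in wild type skin. Its log2 difference was 1.58 (adjusted p = 0.111), or 2.07 without wild type replicate 1. The other spinous markers did not follow it, as Krt10, Serpinb2 and Sbsn had log2 differences of -0.27, -0.36 and 0.026. The median of the spinous list was -0.12. No marker had a signal of 0 on any array. The part of these shifts in the values of Flg, Casp14, Rptn, Asprv1 and the deiminases was not tested.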

How the data were processed

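Dorsal skin RNA of 2 bitransgenic and 2 wild type mice was measured on single-colour arrays. The intensity values were deposited by the authors on a linear scale, and MAS5 and affy are named per the submitters' processing notes, without versions or roles. Trimmed means, with 2% of the probe sets cut at each end, were equal on all arrays. Of 45101 probe sets, 64 were controls. Those with 1 symbol numbered 34945, those with several 932 and those with none 9160. By Entrez identifier 34741 matched RefSeq.

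Signals were taken as log2(signal + 16). Probe sets at or above the 40th percentile of the mean were kept, and the one with the highest mean stood for each gene. The comparison used limma 3.58.1 (R 4.3.3; lmFit, eBayes with trend, 2 residual and 4.45 prior degrees of freedom), tested first on simulated data. Every probe set was also fitted without a filter. Alternatives were the pseudocount, filter, scaling, trend, probe set choice, a replicate block and each array left out. All members were named, and of each context list the called genes and otherwise up to 4 with the smallest p. The members and lists were chosen with earlier results of these data known.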

Additional observations from a re-analysis of the deposited data

How the results depend on the processing

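Flg and Casp14 kept their direction under all 14 alternatives and passed the threshold in 12, the exceptions being the fits without a bitransgenic array. Rptn passed in 1 and kept its direction in all 14, Asprv1 passed in none, and Hrnr, gene and probe set alike, ran from -0.34 to 0.026 with an array left out, turning without bitransgenic replicate 2. The dim Rptn probe set 1433210_at ran from -0.031 to 1.91 and turned without wild type replicate 2. The cause of these turns was not tested. With an array left out, 0 to 2 members rose and 0 to 1 fell, and 25 to 278 of all genes rose and 111 to 578 fell, against 98 and 206 with all arrays. With no filter on dim probe sets, where 18193 genes were tested, 52 rose and 132 fell. In the fit of all probe sets no member was called, while 1 rose with a pseudocount of 1, 2 with equal array medians and 2 with the filter at the 40th percentile. Quantile normalization and equal array medians moved the median of all genes to 0.041 and 0.083.

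Replicate numbers are shared between groups but are not said to mark a litter or batch, and deviations of same-numbered arrays correlated at 0.34. Same-numbered arrays differ in Eif2s3y, so they are not pairs matched for sex. The spread that a replicate block leaves is the contrast between arrays with and without Eif2s3y. With a replicate block 207 genes rose and 438 fell, and 2 member probe sets rose. Flg and Casp14 were called in the gene fit with the block and without it. Of the transcription factors 2 rose and 2 fell with it, and Lor (adjusted p = 0.0239) and 7 inner root sheath markers fell. The value table holds no detection calls, so signals near 57.0 carry little information.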
